A study of Mus musculus with 40 samples.

Results

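H2-K1, H2-Q2 and H2-Q5 are genes of the mouse major histocompatibility complex (MHC) class I family on chromosome 17, and their transcripts were followed here in the gut of 2 inbred mouse strains. They were taken as every probe that the array platform's annotation names for one of these symbols. That gave 5 of 25697 probes and 3 of 16593 gene symbols: ILMN_2634603 and ILMN_2795520 for H2-K1, ILMN_2725914 and ILMN_2895301 for H2-Q2, and ILMN_2685581 for H2-Q5. The genes were selected on their signals in these arrays, chosen by the difference between the strains, so every difference between strains below is a description of these mice, with no test. All 5 probes passed the detection filter in both tissues, although several did so through the strain in which they were bright.

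The mice were female, 9 weeks old and kept free of specific pathogens. BALB/c and C57BL/6 mice came from different suppliers, so strain and supplier cannot be told apart. Each mouse received 200 µl by gavage 3 times a week for 4 weeks, either PBS alone or VSL#3, a mixture of live probiotic bacteria, in PBS. With 5 mice for each strain and treatment, and colon and small intestine from each of the 20 mice, there were 8 groups of 5 Illumina MouseRef-8 arrays. RNA was from whole intestinal tissue, so fewer cells of a type and less RNA per cell cannot be told apart in any result below.

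Class I molecules consist of a polymorphic heavy chain and the light chain beta-2-microglobulin, and they present peptides from inside the cell to CD8+ T cells. H2-K1 encodes the heavy chain of the classical molecule H2-K, which nearly all nucleated cells carry. H2-Q2 lies in the Q region, a stretch of non-classical class I genes elsewhere in the complex, and H2-Q5 is listed by RefSeq as a transcribed pseudogene. Laboratory strains carry different MHC haplotypes, H-2d in BALB/c and H-2b in C57BL/6, and class I genes differ between haplotypes in sequence and in number. The heavy chain genes are also very similar to each other. Probe sequences were not used here, so whether a probe detects a single class I gene, or the alleles of both strains alike, was not tested. For that reason the 5 probes are reported one by one, and the level of one probe is never set against that of another.

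The promoter windows of H2-K1 and H2-Q2 are shown because they are the regulatory sequence of these genes given by RefSeq (build GRCm38.p6, the C57BL/6 reference); H2-Q5 was not matched. Each window runs from 250 bases before to 50 bases after the annotated start and is written 5′ to 3′ on the strand of the gene. The H2-K1 window is chr17:34000298-34000597 on the minus strand, the first of 2 overlapping windows listed. The H2-Q2 window is chr17:35342057-35342356 on the plus strand. Capitals mark matches on either strand to letters known from class I promoters, which were chosen with the sequences in view: GGGGATTCCCC (the kappaB letters of enhancer A, taken from the H2-K1 window itself), GAANNGAAA (the core of an interferon-stimulated element), TGACGC (within site alpha), CCAAT (the Y box) and TATAAA (the TATA box).
H2-K1: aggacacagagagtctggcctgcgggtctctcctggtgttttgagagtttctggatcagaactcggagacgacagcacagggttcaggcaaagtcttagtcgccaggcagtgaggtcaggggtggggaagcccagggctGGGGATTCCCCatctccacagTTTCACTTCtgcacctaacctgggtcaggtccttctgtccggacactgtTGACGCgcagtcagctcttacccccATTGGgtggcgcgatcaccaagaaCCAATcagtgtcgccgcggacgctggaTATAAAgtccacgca
H2-Q2: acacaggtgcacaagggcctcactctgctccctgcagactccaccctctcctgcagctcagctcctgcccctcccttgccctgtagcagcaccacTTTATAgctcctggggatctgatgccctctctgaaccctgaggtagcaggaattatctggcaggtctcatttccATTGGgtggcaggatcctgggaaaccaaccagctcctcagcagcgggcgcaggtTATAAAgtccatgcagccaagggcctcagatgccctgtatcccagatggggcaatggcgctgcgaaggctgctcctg

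The H2-K1 window held all 5 motifs, none overlapping another. GGGGATTCCCC lay at bases 140 to 150 of the window and the interferon-type core, read on the opposite strand, at bases 161 to 169. The H2-Q2 window held the Y box and the TATA box but none of the other 3 letter strings. Of 32544 promoter windows of the same length, 0.0307% held GGGGATTCCCC, 7.57% GAANNGAAA, 7.44% TGACGC, 37.4% CCAAT and 13.6% TATAAA. Among 17 class I heavy chain genes with a window, GGGGATTCCCC stood in 3 (H2-D1, H2-K1 and H2-Q6) and GAANNGAAA in 8. A match is a description of these letters and no measurement of binding.

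Values are background-corrected, quantile-normalized log2 signals, and a probe counts as detected on an array at a detection p-value under 0.05. Between 11898 and 13518 probes were detected per array, and arrays of a group correlated with r from 0.962 to 0.986 over probes. The number of arrays limits the precision of every mean. The labels were borne out by marker genes: H2-Ea, an MHC class II chain that C57BL/6 mice lack, read at least 11.76 on every BALB/c array and at most 6.96 on every C57BL/6 array. Sis, the sucrase-isomaltase of enterocytes, read at least 13.01 on the small intestine arrays and at most 7.03 on the colon arrays. Aqp8, a water channel of colonocytes (ILMN_2756379), read at least 11.05 in colon and at most 5.90 in small intestine. In the deposited normalized table, 10 columns of VSL#3 colon followed the arrays of the other strain, so the non-normalized table was used throughout.

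In each of the 4 combinations of treatment and tissue, 4 of the 5 probes did not overlap between the strains. Over all probes tested, 8.79% did not overlap in PBS colon, 9.17% in VSL#3 colon, 8.4% in PBS small intestine and 10.4% in VSL#3 small intestine. Because the strain contrast chose the genes, nothing is read from that count. BALB/c was the higher strain for H2-K1 ILMN_2795520, H2-Q2 ILMN_2725914 and H2-Q5, and C57BL/6 for H2-Q2 ILMN_2895301, while the other H2-K1 probe overlapped everywhere. The 2 probes of H2-Q2 therefore pointed in opposite strain directions.

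**Figure D1:**
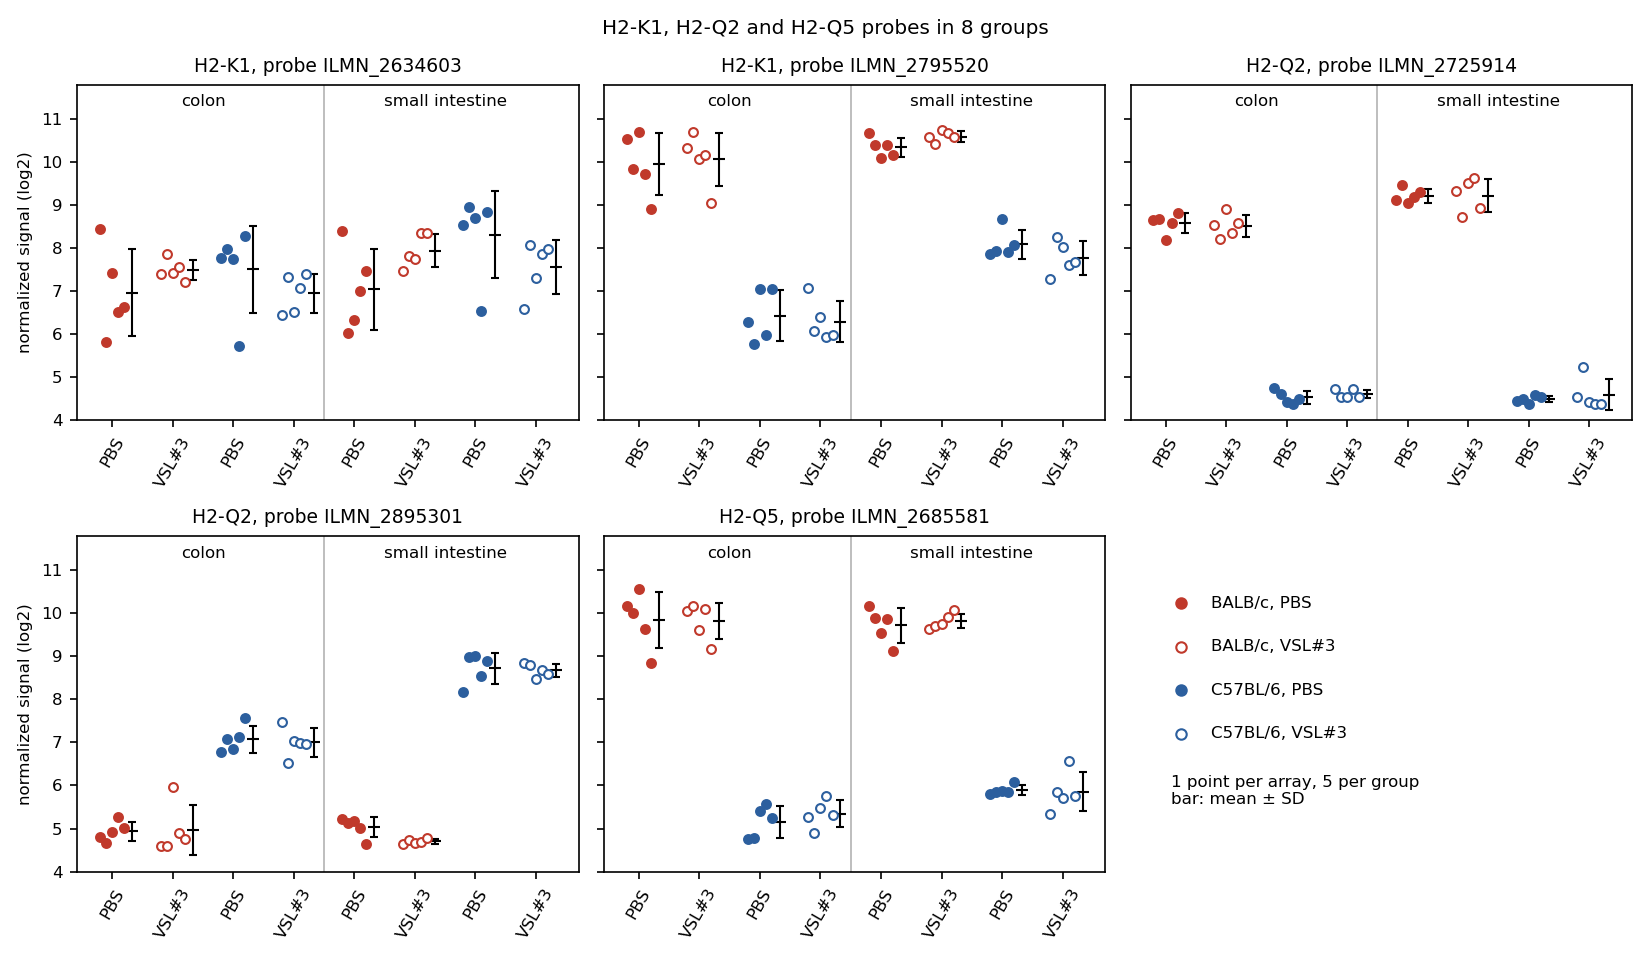
Normalized log2 signal (vertical axis) of each H2-K1, H2-Q2 and H2-Q5 probe in the 8 groups (horizontal axis, by tissue and treatment; red BALB/c, blue C57BL/6; filled PBS, open VSL#3). Points are arrays and bars the mean ± SD of 5; ILMN_2725914 and ILMN_2895301 separate the strains in opposite directions, and ILMN_2634603 spreads widely within groups.

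For H2-K1, ILMN_2795520 read 10.54, 9.85, 10.70, 9.72 and 8.91 in the colon of the PBS BALB/c mice and 6.28, 5.77, 7.04, 5.98 and 7.05 in that of the PBS C57BL/6 mice. In VSL#3 small intestine it read 10.57, 10.41, 10.73, 10.66 and 10.58 in BALB/c and 7.27, 8.27, 8.03, 7.60 and 7.68 in C57BL/6 mice. Every BALB/c array lay above every C57BL/6 array of the same tissue, and the probe was detected on all of them. The difference between the strain means was 3.52 in PBS colon (11.5-fold), 3.77 in VSL#3 colon (13.6-fold), 2.26 in PBS small intestine (4.79-fold) and 2.82 in VSL#3 small intestine (7.08-fold). The order of the group means put the 4 BALB/c groups first, at 9.94 to 10.59, and neighbours among them overlapped. C57BL/6 small intestine followed at 8.08 ± 0.34 with PBS and 7.77 ± 0.39 with VSL#3 (SD, n = 5). C57BL/6 colon came last, at 6.42 ± 0.60 and 6.29 ± 0.47 (SD, n = 5), and did not overlap with C57BL/6 small intestine.

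The second H2-K1 probe, ILMN_2634603, was detected on every array but did not separate the strains. In PBS colon it read 8.45, 5.80, 7.42, 6.52 and 6.62 in BALB/c and 7.77, 7.97, 7.75, 5.72 and 8.29 in C57BL/6 mice, and the groups overlapped. In PBS small intestine it read 8.39, 6.03, 6.32, 7.01 and 7.46 in BALB/c and 8.53, 8.96, 8.69, 6.53 and 8.85 in C57BL/6 mice, again with overlap. The BALB/c mean was lower in PBS mice, by -0.54 in colon and -1.27 in small intestine, and higher in VSL#3 mice, by 0.54 and 0.38. All neighbours in the order of its 8 group means, from 8.31 in PBS C57BL/6 small intestine to 6.95 in VSL#3 C57BL/6 colon, overlapped.

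For H2-Q2, ILMN_2725914 was a BALB/c signal. It read 8.65, 8.68, 8.18, 8.58 and 8.81 in PBS BALB/c colon and 9.11, 9.46, 9.05, 9.17 and 9.29 in PBS BALB/c small intestine. In C57BL/6 mice it was detected on 0 of 5 arrays in PBS colon, VSL#3 colon and PBS small intestine, and on 1 of 5 in VSL#3 small intestine. Bounds were set against the detection limit of the C57BL/6 arrays, with an offset of 16 in the background correction. BALB/c mice were then at least 11.1-fold higher in PBS colon, at least 10.5-fold in VSL#3 colon and at least 16.6-fold in PBS small intestine. The measured means were 8.58 against 4.53, 8.52 against 4.60 and 9.22 against 4.49. In VSL#3 small intestine they were 9.22 against 4.59, where the 1 detected C57BL/6 array read 5.23 and the others 4.37 to 4.55. The bounds hold for the offset of 16 only. With an offset of 50 the measured log2 differences in PBS colon, VSL#3 colon and PBS small intestine were 2.87, 2.78 and 3.48, smaller than the bounds.

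The other H2-Q2 probe, ILMN_2895301, was a C57BL/6 signal. It read 6.77, 7.07, 6.84, 7.12 and 7.57 in PBS C57BL/6 colon and 8.17, 9.00, 9.01, 8.54 and 8.90 in PBS C57BL/6 small intestine. With VSL#3 the C57BL/6 arrays read 7.48, 6.53, 7.03, 6.98 and 6.97 in colon and 8.85, 8.80, 8.47, 8.67 and 8.60 in small intestine. It was not well above background in most BALB/c mice, being detected on 1 of 5 arrays in each colon group, 2 of 5 in PBS small intestine and 0 of 5 in VSL#3 small intestine. In that last group C57BL/6 mice were at least 11.6-fold higher with the offset of 16, where the measured means were 8.68 and 4.70. With an offset of 50 the log2 difference, BALB/c minus C57BL/6, was -2.89 there, smaller in size than that bound. In the other 3 groups the BALB/c mean was lower by -2.14 (PBS colon), -2.04 (VSL#3 colon) and -3.69 (PBS small intestine), values that include arrays near the background.

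For H2-Q5, ILMN_2685581 read 10.17, 10.01, 10.56, 9.64 and 8.85 in PBS BALB/c colon and 4.75, 4.77, 5.40, 5.57 and 5.23 in PBS C57BL/6 colon. In PBS small intestine it read 10.17, 9.89, 9.56, 9.87 and 9.12 in BALB/c and 5.81, 5.84, 5.87, 5.85 and 6.08 in C57BL/6 mice. BALB/c was higher in every array of each group. The strain means differed by 4.70 in PBS colon (26-fold), 4.48 in VSL#3 colon (22.3-fold), 3.83 in PBS small intestine (14.2-fold) and 3.98 in VSL#3 small intestine (15.7-fold). C57BL/6 mice were not without signal: the probe was detected on 3 of 5 PBS and 4 of 5 VSL#3 colon arrays and on all 10 C57BL/6 small intestine arrays. The 4 BALB/c groups, at 9.72 to 9.85, overlapped with each other.

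How large these strain differences are depends on the background correction, and their direction did not. For ILMN_2725914 in PBS colon, the difference of 4.05 became 2.87 with an offset of 50 and 8.00 when values under 1 were set to 1 in place of the correction. For ILMN_2895301 in VSL#3 small intestine, -3.98 became -2.89 and -6.78, and for ILMN_2685581 in PBS colon, 4.70 became 3.78 and 5.92.

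The other class I heavy chain probes give the setting for these values. Of 26 listed heavy chain genes, 10 had a probe kept in either tissue. H2-Q8, a further Q region gene, was higher in BALB/c mice in all 4 comparisons, by 2.58 and 2.44 in PBS and VSL#3 colon and by 2.38 and 2.52 in small intestine (limma adjusted p from 4.47e-08 to 1.14e-05). H2-Q7, which encodes a form of the non-classical molecule Qa-2, was lower in BALB/c mice in all 4, by -0.68 and -0.76 in colon and -1.44 and -1.26 in small intestine (adjusted p at most 0.0242). H2-Bl was lower in BALB/c small intestine, by -1.05 and -1.08 (adjusted p = 0.00012 and 7.67e-05), and not kept in colon. H2-T10, also not kept in colon, was lower in BALB/c mice in VSL#3 small intestine, by -0.65 (adjusted p = 0.0278). It lay near the background there, detected on 1 of 5 BALB/c and 3 of 5 C57BL/6 arrays. In PBS small intestine it stood at -0.57 and did not pass (adjusted p = 0.0628). H2-M3, which presents formylated peptides, was higher in BALB/c mice in PBS colon, by 0.87 (adjusted p = 0.00207), and in VSL#3 small intestine, by 0.53 (adjusted p = 0.0185). For H2-T23, which encodes Qa-1, ILMN_1223179 was lower in BALB/c mice in PBS small intestine, by -0.64 (adjusted p = 0.000734), where its other probe stood at -0.25 (adjusted p = 0.281). H2-D1, the other classical heavy chain gene of C57BL/6 mice, differed by 0.53, 0.13, 0.28 and 0.01 and passed the test in none of the 4. Over all probes, limma called 10.4%, 9.82%, 9.84% and 11.4% in these comparisons.

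Markers of other cells also differed between the strains. Of all probes, limma called 10.4% in PBS colon, 9.82% in VSL#3 colon, 9.84% in PBS small intestine and 11.4% in VSL#3 small intestine. In PBS colon, 5 of 5 measured T cell markers (median 1.07), 4 of 6 B cell markers (median 1.17) and 2 of 5 macrophage and dendritic cell markers (median 0.41) were higher in BALB/c mice, and 3 of 8 smooth muscle markers were lower (median -0.35). In VSL#3 colon, 2 of the T cell, 1 of the B cell and 0 of the macrophage markers were higher and 1 smooth muscle marker was lower. In PBS small intestine, 1 of 6 T cell markers was higher, and 3 smooth muscle markers and 1 macrophage marker were lower. In VSL#3 small intestine, 1 T cell marker was higher, and 2 macrophage, 1 smooth muscle and 1 pancreatic acinar markers were lower. No epithelial or adipocyte marker was called in these 4 comparisons. Their part in the class I values was not tested.

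**Figure D2:**
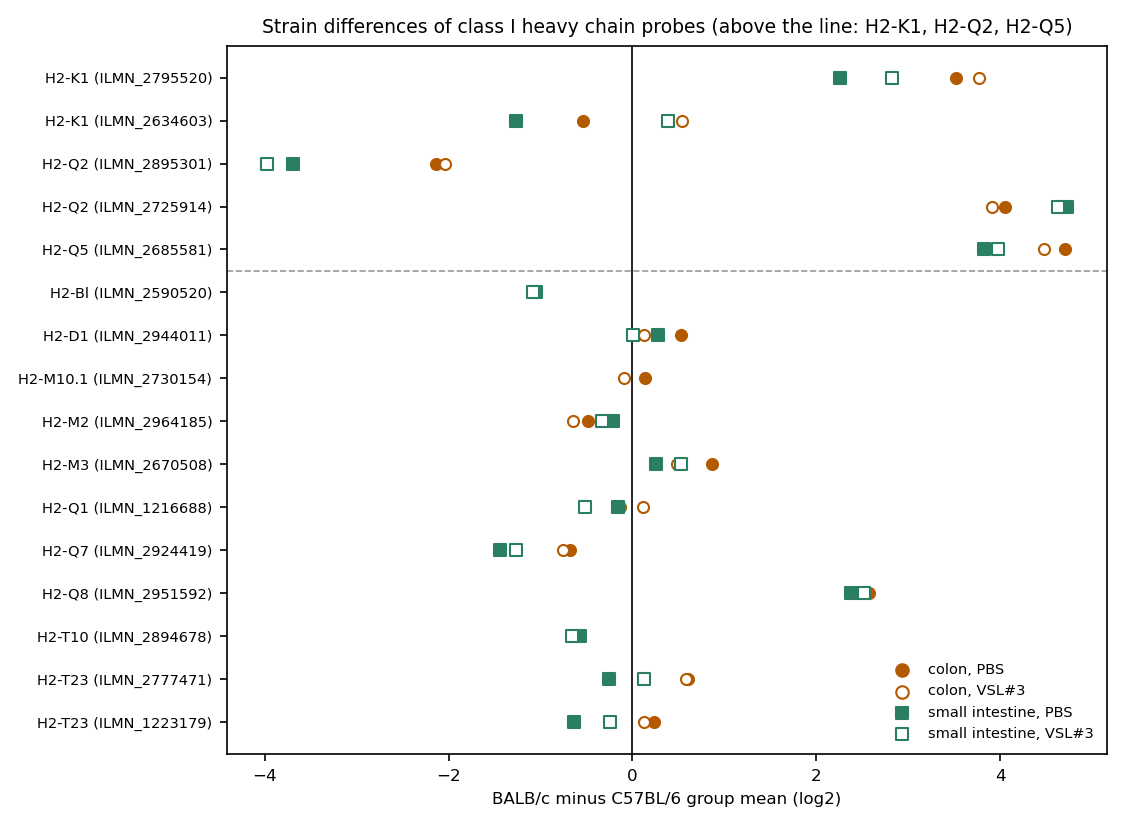
BALB/c minus C57BL/6 difference of group means (log2, horizontal axis) for every kept class I heavy chain probe (vertical axis), by tissue (circle colon, square small intestine) and treatment (filled PBS, open VSL#3). H2-K1 ILMN_2795520, H2-Q2 ILMN_2725914 and H2-Q5 lie between 2.26 and 4.73, H2-Q2 ILMN_2895301 between -3.98 and -2.04, and H2-Q8 is the other probe above 2.

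None of the 5 probes differed between VSL#3 and PBS mice at an adjusted p under 0.05 in either strain or tissue. ILMN_2725914 in C57BL/6 mice and ILMN_2895301 in BALB/c mice lay near the background, where an effect of VSL#3 could hardly be measured. Limma called 0 of 5 in each of the 8 treatment comparisons, and 0% of all probes, with 493 to 839 of 13385 colon probes and 585 to 814 of 13035 small intestine probes at an unadjusted p under 0.05. Of the comparisons within 1 strain, the difference farthest from 0 was that of H2-K1 ILMN_2634603 in BALB/c small intestine. There the VSL#3 arrays read 7.47, 7.80, 7.74, 8.35 and 8.34 against 8.39, 6.03, 6.32, 7.01 and 7.46 with PBS, so that the groups overlapped. The difference was 0.90 (SE 0.44, 95% interval -0.01 to 1.80, adjusted p = 0.799), and in C57BL/6 small intestine it was -0.75 (SE 0.44, interval -1.66 to 0.15, adjusted p = 0.999).

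The estimated effect of VSL#3 on ILMN_2634603 thus had opposite signs in the 2 strains in both tissues. Both tissues come from the same mice, in which this probe's deviations ran together (Pearson r = 0.813), so they are not separate observations. The difference of the effects did not pass the test. It was 1.65 in small intestine (SE 0.62, 95% interval 0.37 to 2.93, unadjusted p = 0.0137, adjusted p = 0.839) and 1.08 in colon (SE 0.61, interval -0.18 to 2.34, adjusted p = 1 after rounding from 0.9997). The VSL#3 C57BL/6 arrays read 6.58, 8.06, 7.31, 7.86 and 7.97 in small intestine. Without PBS C57BL/6 mouse 4, whose values of 5.72 and 6.53 lie far below those of its group, the difference of effects was 2.10 in small intestine (adjusted p = 0.506) and 1.52 in colon (adjusted p = 0.839). The second H2-K1 probe, ILMN_2795520, had a difference of effects of 0.56 in small intestine (SE 0.24, adjusted p = 0.871).

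For the Q region probes the intervals of the VSL#3 effect were narrower than for ILMN_2634603. ILMN_2725914, in BALB/c mice where it was bright, differed by -0.07 in colon (95% interval -0.33 to 0.20) and by 0.00 in small intestine (interval -0.35 to 0.36). ILMN_2895301, in C57BL/6 mice, differed by -0.07 in colon (interval -0.54 to 0.40) and by -0.04 in small intestine (interval -0.35 to 0.26). H2-Q5 differed in BALB/c mice by -0.02 in colon (interval -0.57 to 0.52) and by 0.10 in small intestine (interval -0.29 to 0.50). The plot of VSL#3 effects shows all 20 intervals, of which that of ILMN_2895301 in BALB/c small intestine, -0.33 (interval -0.63 to -0.03, adjusted p = 0.778), leaves out 0 at signals near the background.

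**Figure D3:**
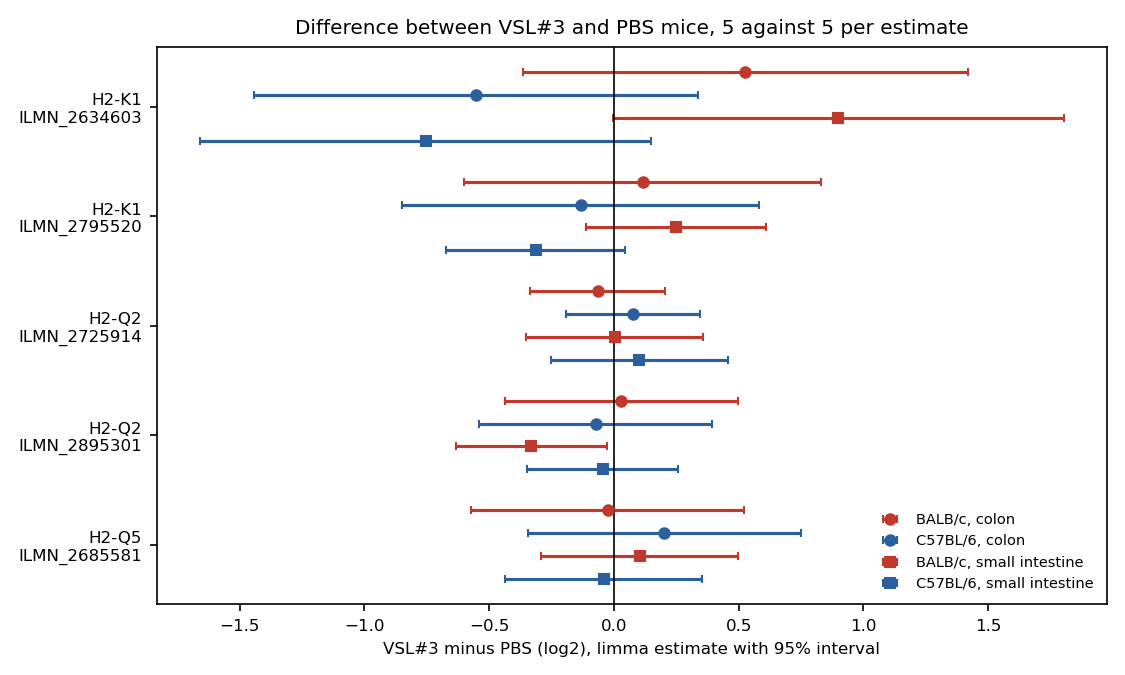
Difference between VSL#3 and PBS mice (log2, horizontal axis) for each of the 5 probes (vertical axis), as the limma estimate with its 95% interval from 5 against 5 mice; red BALB/c, blue C57BL/6, circles colon, squares small intestine. The widest intervals are those of ILMN_2634603, whose estimates lie above 0 in BALB/c and below 0 in C57BL/6 mice, and no estimate passed the test.

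The tissues were compared within each mouse, as colon minus small intestine. In C57BL/6 mice 4 of the 5 probes were lower in colon, both with PBS and with VSL#3, where 17.1% and 17.2% of all 14009 probes tested were lower. Of these 4, H2-Q5 lay near the background in C57BL/6 colon. In BALB/c mice 1 of the 5 was lower with each treatment, against 16.1% and 17.2% of all probes. The probe that was lower in BALB/c colon, H2-Q2 ILMN_2725914, was the 1 not called in C57BL/6 mice, in which it was hardly detected in either tissue.

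**Figure D4:**
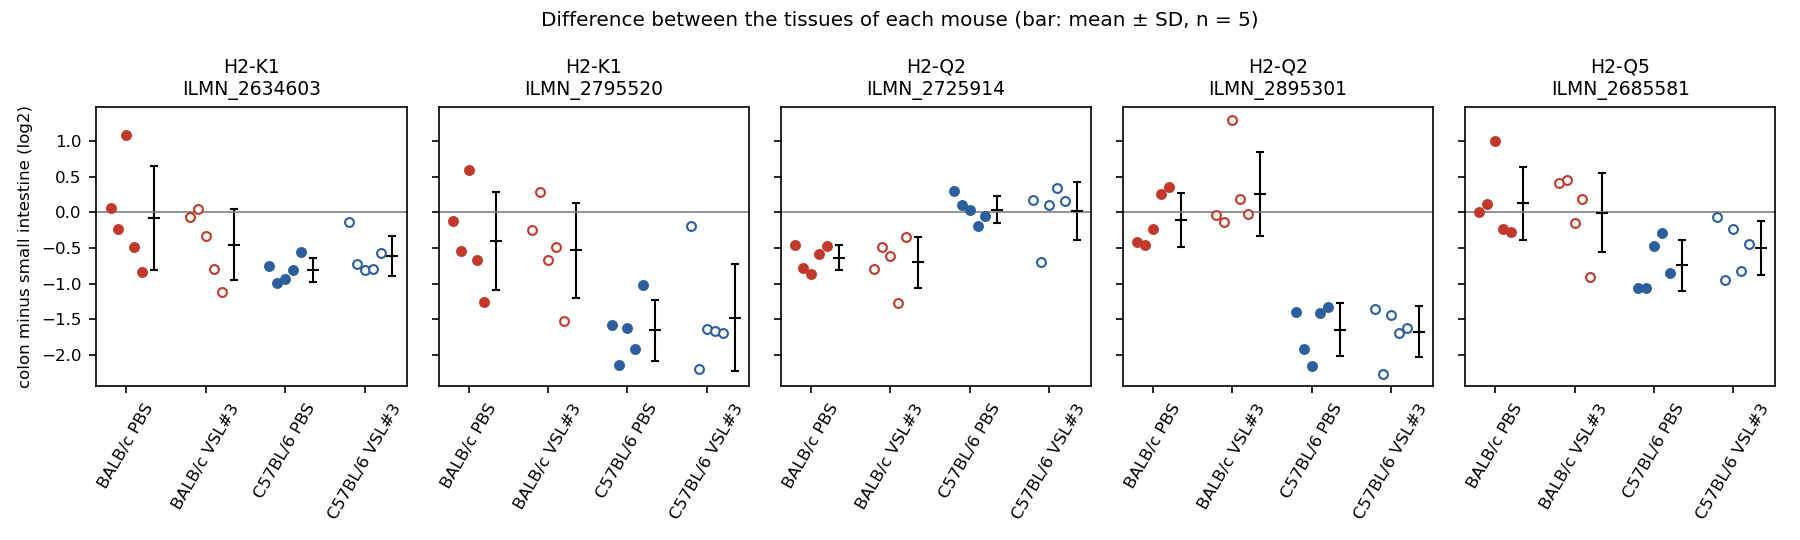
Colon minus small intestine difference of each mouse (log2, vertical axis) for the 5 probes, by strain and treatment (horizontal axis; red BALB/c, blue C57BL/6; filled PBS, open VSL#3), with the mean ± SD of 5 mice. For every probe but ILMN_2725914 all 10 C57BL/6 mice lie below 0, and for ILMN_2725914 all 10 BALB/c mice do.

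H2-K1 ILMN_2795520 differed between the tissues of the 5 PBS C57BL/6 mice by -1.58, -2.15, -1.63, -1.92 and -1.02, a mean of -1.66 (SE 0.26, limma adjusted p = 3.12e-05). With VSL#3 the mean was -1.48 (adjusted p = 0.000118), with 4 mice between -1.64 and -2.20 and mouse 1 at -0.19. All 10 C57BL/6 mice were lower in colon. In BALB/c mice the means were -0.40 and -0.53 (adjusted p = 0.264 and 0.126), with 1 of 5 mice above 0 in each group. ILMN_2634603 was lower in C57BL/6 colon by -0.81 with PBS (SE 0.20, adjusted p = 0.00225) and -0.61 with VSL#3 (adjusted p = 0.0171), in 10 of 10 mice. The call with VSL#3 was lost without VSL#3 C57BL/6 mouse 2, 3 or 4 (adjusted p from 0.0515 to 0.0585) and with median scaling (adjusted p = 0.0634). In BALB/c mice it differed by -0.08 and -0.45 (adjusted p = 0.795 and 0.0775).

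H2-Q2 ILMN_2895301 differed between the tissues of the PBS C57BL/6 mice by -1.40, -1.93, -2.17, -1.42 and -1.33, a mean of -1.65 (SE 0.18, adjusted p = 2.79e-07), and by -1.68 with VSL#3 (adjusted p = 2.19e-07). This corresponds to 3.13-fold and 3.20-fold lower signals in colon. ILMN_2725914 differed between the tissues of the PBS BALB/c mice by -0.46, -0.78, -0.86, -0.59 and -0.48, a mean of -0.63 (SE 0.13, adjusted p = 0.000634), and by -0.70 with VSL#3 (adjusted p = 0.000234). Each H2-Q2 probe was thus lower in the colon of the strain in which it was bright. When values under 1 were set to 1 in place of the background correction, ILMN_2895301 stood at -1.78 with PBS (adjusted p = 0.0553) and ILMN_2725914 at -0.66 and -0.73 with PBS and VSL#3 (adjusted p = 0.48 and 0.427). H2-Q5 was lower in C57BL/6 colon, by -0.75 with PBS (adjusted p = 0.00378) and -0.50 with VSL#3 (adjusted p = 0.0437). In BALB/c mice it differed by 0.13 and 0.00 (adjusted p = 0.658 and 0.998). Its C57BL/6 colon signal lay near the background, detected on 3 of 5 PBS and 4 of 5 VSL#3 arrays. The C57BL/6 difference with PBS ran from -1.53 to -0.42 over the other settings. The call with VSL#3 was lost in 5 of the 20 fits that each left out 1 mouse (PBS BALB/c mouse 2, PBS C57BL/6 mouse 5, and VSL#3 C57BL/6 mouse 2, 4 or 5; adjusted p from 0.0502 to 0.172). It was also lost with values under 1 set to 1 (adjusted p = 0.053), median scaling (0.0861), an offset of 50 (0.137) and no detection filter (0.0647).

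The tissue difference of BALB/c mice minus that of C57BL/6 mice is made of the strain differences that chose the genes, so it is given as a description, with no test. For ILMN_2895301 it was 1.55 with PBS and 1.94 with VSL#3, and for ILMN_2725914 it was -0.67 and -0.72. For both H2-Q2 probes one strain lay near the background in both tissues, where a tissue difference could hardly be measured, so these values mostly repeat the tissue difference of the bright strain. For ILMN_2795520, detected on every array of both strains, it was 1.26 with PBS and 0.95 with VSL#3. For H2-Q5, near the background in C57BL/6 colon, it was 0.87 and 0.50, and for ILMN_2634603 it was 0.73 and 0.16.

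The rest of the class I pathway was read from a list of the light chain and peptide loading genes. Of its 13 genes measured of 14, 11 were lower in colon than in small intestine in PBS C57BL/6 mice and 10 in VSL#3 C57BL/6 mice, with medians of -0.79 and -0.83 against 0.03 over all probes. In BALB/c mice 2 and 3 were lower, with medians of -0.03 and -0.32. As shares of the list these counts in BALB/c mice are near the 16.1% and 17.2% of all probes called lower, and those in C57BL/6 mice lie above the 17.1% and 17.2%. B2m, the light chain, was lower in C57BL/6 colon by -1.15 with PBS and -0.84 with VSL#3 (adjusted p = 6.12e-06 and 0.000257). Psmb8 and Psmb9, subunits of the immunoproteasome that cuts peptides for class I, were lower by -1.89 and -1.58 with PBS (adjusted p = 3.51e-05 and 0.00183). Tap1, which carries peptides into the endoplasmic reticulum, stood at -0.93 (adjusted p = 0.0666) and did not pass, while its partner Tap2 was lower by -0.89 (adjusted p = 0.00352).

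The tissue difference differed between the strains for 2.75% of all probes with PBS and 2.41% with VSL#3. Within this list it did so for B2m, by 1.13 (SE 0.23, adjusted p = 0.00678), and for Psmb8, by 1.83 (SE 0.43, adjusted p = 0.0215), in PBS mice, and for none of the 13 in VSL#3 mice. Nlrc5, the transactivator of class I genes, was lower in C57BL/6 colon by -1.25 with PBS and -1.01 with VSL#3 (adjusted p = 0.00826 and 0.0297). Its difference between strains, 1.43 with PBS, did not pass (adjusted p = 0.167). Of the 7 measured class I regulators it was the 1 lower in C57BL/6 colon with each treatment, and 1 was higher. That was Irf2, by 0.50 and 0.42 (adjusted p = 0.000237 and 0.00125). In BALB/c colon 0 were lower, Irf2 and Rela were higher with PBS (0.55 and 0.38), and Irf2 with VSL#3 (0.35). Over all probes 17.1% and 17.2% were lower in C57BL/6 colon, and 22% and 22.1% higher. Other heavy chain genes lower in C57BL/6 colon with PBS included H2-T23 (ILMN_2777471) by -1.14 (adjusted p = 6.57e-06), H2-Q7 by -0.88 (adjusted p = 3.31e-05) and H2-D1 by -0.69 (adjusted p = 0.00852). With VSL#3 they stood at -0.99, -0.77 and -0.31, and H2-D1 did not pass (adjusted p = 0.243). H2-Bl was detected on all 5 PBS C57BL/6 small intestine arrays and on 0 of 5 colon arrays. The tissue difference of H2-T23 and H2-Q7 differed between the strains with PBS, by 0.85 and 0.77 (adjusted p = 0.0465 and 0.0414). Neither did so with VSL#3, where that of H2-T23 was 0.46 (adjusted p = 0.369). No gene of these lists was called between VSL#3 and PBS. In BALB/c small intestine Tap1 stood at 0.76, Nlrc5 at 0.74 and B2m at 0.20 with VSL#3 (adjusted p = 0.706, 0.74 and 0.817).

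Markers of other cells moved with the same tissue contrast, in which 21.1%, 20.6%, 22% and 22.1% of all probes were higher in colon in PBS and VSL#3 BALB/c and PBS and VSL#3 C57BL/6 mice. In the same order, 16.1%, 17.2%, 17.1% and 17.2% of all probes were lower in colon. Of 8 T cell markers 6 were measured, and 4 were lower in colon in PBS C57BL/6, 5 in each of the other 3 groups, with 1 higher in each. Their summed signal on the linear scale ranged from 451 to 518 in PBS C57BL/6 colon against 695 to 1101 in small intestine, and from 594 to 958 against 984 to 1389 in PBS BALB/c mice. Of 8 B cell markers 6 were measured, and 4 were lower in C57BL/6 colon with each treatment and 0 in BALB/c colon, with medians of -0.99 and -0.75 against -0.35 and -0.29. The test of a difference between the strains called 0 of the 6 B cell and 0 of the 6 T cell markers with either treatment. Their sum ranged from 285 to 378 in PBS C57BL/6 colon against 606 to 916 in small intestine, and from 490 to 1052 against 682 to 1340 in PBS BALB/c mice. Pax5 was detected on 3 of 40 arrays, and Trac and Lck had no probe. Cd8b1, a chain of the CD8 co-receptor that binds class I, was lower in colon by -1.99 in PBS C57BL/6 and -1.78 in PBS BALB/c mice (adjusted p = 1.26e-07 and 6.14e-07).

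Of 8 macrophage and dendritic cell markers 6 were measured, and 4 and 3 were higher in BALB/c colon with PBS and VSL#3, while 3 and 2 were lower in C57BL/6 colon. C1qb, a subunit of complement C1q, differed between the strains in this contrast by 0.82 with PBS and 0.76 with VSL#3 (adjusted p = 0.0249 and 0.0439), and C1qc by 0.86 with PBS (adjusted p = 0.0223). The summed signal of the list ranged from 2601 to 3203 in PBS C57BL/6 colon against 2718 to 3316 in small intestine, and from 3830 to 6588 against 2602 to 3977 in PBS BALB/c mice. Csf1r and Cd68 had no probe. Of 8 smooth muscle markers 5 to 6 were higher in colon in each group, with medians from 0.85 to 1.15. Of 9 measured pancreatic acinar markers 9 were higher in VSL#3 BALB/c colon and 1 in each other group. Of 6 measured adipocyte markers 2 were lower in colon with PBS and 5 with VSL#3 in each strain. The part of these cells in the class I values was not tested.

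Within groups, the 2 H2-K1 probes varied in different ways. The SD of ILMN_2634603 around its group means was 0.76 in colon and 0.78 in small intestine, against medians of 0.25 and 0.26 over all probes, and only 0.889% and 0.23% of probes had one as large. ILMN_2795520 had an SD of 0.61 in colon and 0.29 in small intestine, and 1.41% and 39.2% of probes had one as large. In colon both H2-K1 probes thus spread widely, and in small intestine ILMN_2634603 did. H2-Q5 had an SD of 0.46 in colon, with 3.89% of probes as large. In a comparison added after the values were seen, the deviation of each mouse from its group mean was set against that of its other tissue. For ILMN_2634603 the tissues of the same mouse deviated together over 20 mice (Pearson r = 0.813, permutation p = 0.00437, adjusted over the 5 probes 0.0218; Spearman rho = 0.728, permutation p = 0.00333, adjusted 0.0166). Without the 2 mice farthest from the median, r was 0.627. Of 12411 probes kept in both tissues 0.79% had an r as high, and the median was 0.257.

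**Figure D5:**
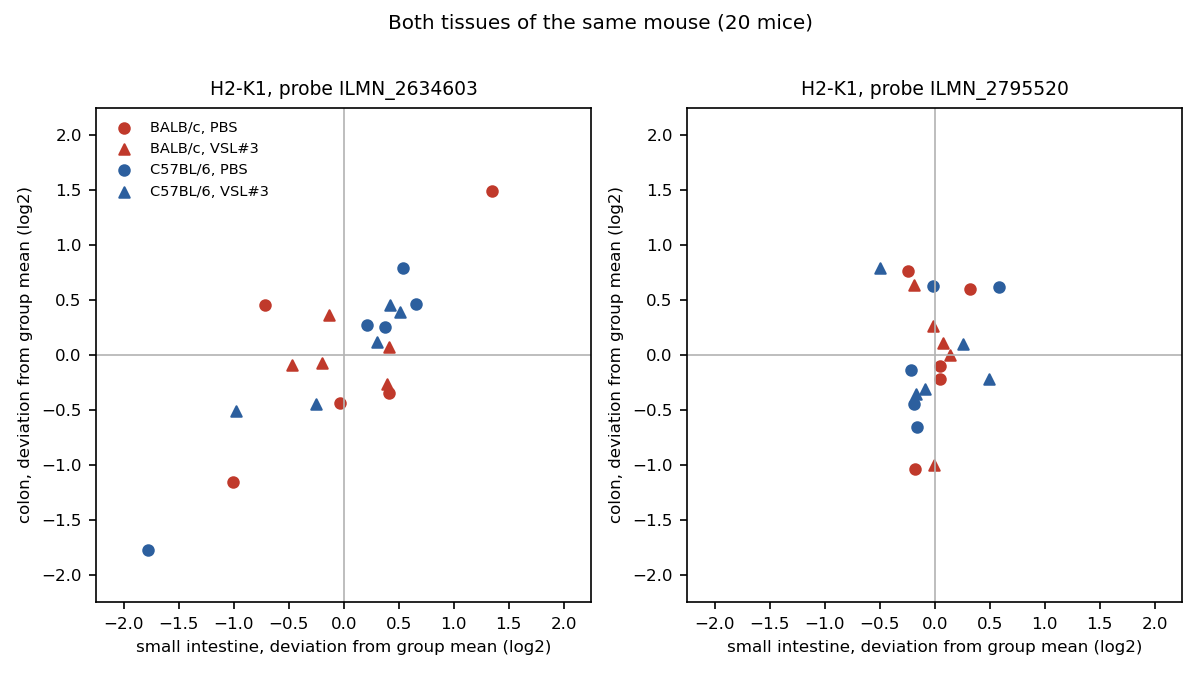
Deviation of each mouse from its group mean (log2) in small intestine (horizontal axis) and colon (vertical axis) for the 2 H2-K1 probes; circles PBS, triangles VSL#3, red BALB/c, blue C57BL/6, 1 point per mouse. For ILMN_2634603 (left) mice low in one tissue are low in the other, with r = 0.813, whereas ILMN_2795520 (right) has r = 0.0918.

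The lowest point for ILMN_2634603 was PBS C57BL/6 mouse 4, at 5.72 in colon and 6.53 in small intestine, and the highest was PBS BALB/c mouse 1, at 8.45 and 8.39. For the other 4 probes r between the tissues was 0.0918 (ILMN_2795520), 0.242 (ILMN_2725914), 0.0528 (ILMN_2895301) and 0.332 (ILMN_2685581), with adjusted permutation p from 0.566 to 0.808. The 2 H2-K1 probes correlated with r = 0.0896 in their values over the 40 arrays and 0.357 in their deviations from the group means. The deviations of H2-Q5 ran with those of H2-K1 ILMN_2795520 (r = 0.581) more than with those of any other of the 5 probes. These correlations describe the 40 arrays, which share mice and normalization.

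Probes most like each of the 5 were ranked by Pearson r over the 40 arrays. ILMN_2795520 was closest to Gm8909, which RefSeq lists with the synonym H2-gs17 on chromosome 17, with r = 0.969 in values and 0.861 in deviations from the group means. ILMN_2725914 and H2-Q5 were closest in values to the strain marker H2-Ea (r = 0.981 and 0.978), and ILMN_2895301 to St3gal4, a sialyltransferase (r = 0.972), so that these values largely follow the strains. In deviations, H2-Q5 was closest to Wars (r = 0.732), a tryptophan tRNA ligase, Ddah1 (r = 0.707) and the interferon-induced GTPase Igtp (r = 0.685). ILMN_2634603 was closest in deviations to Mdh1, a malate dehydrogenase (r = 0.891), Eef1a1, a translation elongation factor (r = 0.87), and Tpt1 (r = 0.86), none of them a class I gene.

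Set against B2m, Tap1, Nlrc5, H2-D1, H2-T23 and Psmb8, the last added after its values were seen, the deviations of ILMN_2795520 had r of 0.599 with B2m, 0.688 with Psmb8, 0.677 with H2-T23, 0.601 with H2-D1, 0.555 with Nlrc5 and 0.46 with Tap1. H2-Q5 had r from 0.441 with B2m to 0.599 with Psmb8. ILMN_2634603 had r of 0.032 with B2m, 0.0845 with Psmb8 and at most 0.201 with any of the 6, and ILMN_2725914 had values from -0.407 to -0.0808. ILMN_2895301 had r from 0.126 to 0.288. For Mdh1, Eef1a1 and Tpt1, the deviations of the colon and small intestine of the same mouse ran together, with r of 0.801, 0.925 and 0.94. These genes were chosen because their deviations followed those of ILMN_2634603, so that likeness was largely built in and is no separate result.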

How the data were processed

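Per the labels, 500 ng of total RNA gave biotin-labelled cRNA, of which 750 ng went on each array. In the deposited table without normalization every probe and array has a linear intensity, which the authors did not normalize between arrays and which was already background-subtracted (21.4% to 25.1% of values per array below 0). Beside it the deposited table holds 1 minus the detection p-value as a fraction. A deposited normalized table gives log2 values and served as an alternative. The submitters' processing notes name limma; scanner software and build are not given in the sources used here.

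Here intensities were corrected with limma's nec (detection p-values, offset 16), log2-transformed and quantile-normalized over 40 arrays (limma 3.58.1, R 4.3.3). Of 25697 probes, 23978 had 1 symbol, 0 several and 1719 none. Probes with 1 symbol and a detection p-value under 0.05 on at least 5 arrays of a fit were kept: 13385 in colon, 13035 in small intestine and 14009 in at least 1 tissue. The limma fit of a tissue took its 20 arrays as 4 group means, and tissue contrasts over the 20 within-mouse differences, since both tissues of a mouse share a source code. Benjamini-Hochberg adjustment ran over all kept probes of a contrast, at 0.05; 14 contrasts were tested. A bound ("at least") sets the bright group against, per array, the higher of the lowest detected signal and the probe's own. It holds for the offset of 16 only. The steps were tested on simulated data.

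Every probe of the 3 genes is reported. Other genes were named by rule: the 3 most alike by r, up to 4 called members per list and contrast farthest from 0, and B2m, Tap1, Nlrc5, H2-D1 and H2-T23. Members and lists were chosen with earlier results of these data known. The mice carry separate codes; p-values measure the spread between them. Alternatives covered background correction, scaling, offset, table, detection filter, blocks, array weights, samples fitted, probe choice and each mouse left out.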

Additional observations from a re-analysis of the deposited data

Results flagged for a closer look

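Of 40 sets of 5 arrays (5 probes in 8 groups), 6 held an array far from the other 4, where chance flags about 1 in 20 sets. For H2-K1 ILMN_2634603, PBS C57BL/6 mouse 4 read 5.72 in colon against 7.75 to 8.29 in its group, and 6.53 in small intestine against 8.53 to 8.96, so both tissues of 1 mouse stood apart. For H2-K1 ILMN_2795520, PBS C57BL/6 mouse 3 read 8.67 in small intestine against 7.86 to 8.06. For H2-Q2 ILMN_2725914, VSL#3 C57BL/6 mouse 2 read 5.23 in small intestine against 4.37 to 4.55, the only C57BL/6 array on which that probe was detected. For H2-Q2 ILMN_2895301, VSL#3 BALB/c mouse 3 read 5.97 in colon against 4.59 to 4.89. For H2-Q5 ILMN_2685581, PBS C57BL/6 mouse 5 read 6.08 in small intestine against 5.81 to 5.87.

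For H2-Q2 the tissue difference (colon minus small intestine) of BALB/c mice minus that of C57BL/6 mice was flagged in 3 cases. The flag was a limma adjusted p under 0.05. These were ILMN_2895301 with 1.55 in PBS and 1.94 in VSL#3 mice, and ILMN_2725914 with -0.72 in VSL#3 mice. That of ILMN_2725914 was lost in 17 of the 20 fits that each left out 1 mouse. In each case one strain gave hardly any signal above background in either tissue. The contrast is also made of the strain differences that chose the genes, so the flag is no test and the values are a description.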

How the results depend on the processing

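Over 108 results, 11 other settings and 20 mice left out in turn, 3102 values were counted as unchanged. A further 81 moved, 45 no longer passed, 12 newly passed and 0 were counted as reversed. Values counted as unchanged include differences that did not pass and changed sign. With each mouse left out in turn, the VSL#3 difference of ILMN_2795520 in BALB/c colon, 0.12, ran from -0.14 to 0.37. They also include a count of 3 in place of 4 probes without overlap between strains in PBS colon. The counts of VSL#3 calls among the 5 probes stayed at 0 under each setting and with each mouse left out. The counts of probes without overlap between strains were 3 to 5. What moved were counts of tissue calls, given next, and the sizes of strain differences of ILMN_2725914, ILMN_2895301 and H2-Q5 under another background correction, offset or the deposited normalized table. The cause was not tested. Counts between strains rest on contrasts made of the values that chose the genes and are given for completeness. With values under 1 set to 1, 0 of the 5 passed in BALB/c PBS and in BALB/c VSL#3 mice and 0 in both tests of the difference between strains. In the deposited normalized table, which could not be used for contrasts with VSL#3 colon, 0 passed in BALB/c PBS mice and 0 between strains with PBS. Median scaling gave 2 in C57BL/6 VSL#3 mice and 1 between strains with VSL#3. An offset of 50 gave 2 in BALB/c VSL#3 mice and 2 between strains with PBS. With no detection filter 1 passed between strains with VSL#3, and with the stricter filter 2 with PBS. Array weights, and fitting only the groups compared, gave 2 with PBS and 1 with VSL#3 between strains; for contrasts over all 4 groups the latter is the same fit. The code letter as a block gave 2 in BALB/c VSL#3 mice and 1 between strains with VSL#3. With 1 probe per gene, and so 3 probes at most, 2 passed in C57BL/6 mice with PBS and 2 with VSL#3, and 0 and 1 between strains. Leaving out each mouse gave 1 to 2 in BALB/c VSL#3, 2 to 4 in C57BL/6 VSL#3 (2 without VSL#3 C57BL/6 mouse 2 or 4), and 1 to 2 between strains with PBS and with VSL#3.

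The replicate block, with the mouse number of the titles as a block, left 1 probe (ILMN_2895301) between strains with VSL#3 in place of 2 and changed no other count of calls by over 1.5 times. Deviations of same-numbered mice correlated over 0.1 in 3 of 5 pairs for BALB/c colon (r up to 0.431) and 2 of 5 for VSL#3 colon across strains (up to 0.294). They did so in 0 of 5 in the other 6 pairs of groups. Whether the numbers pair the samples was not tested. Signal near the background limits ILMN_2725914 in C57BL/6 mice, ILMN_2895301 in BALB/c mice and H2-Q5 in C57BL/6 colon. Their strain differences depend on the offset.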

Other observations

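Of 7 listed class I-like genes encoded outside the MHC, 5 were measured, and 0 were lower in colon than in small intestine in any of the 4 groups, where 16.1% to 17.2% of all probes were lower. Cd1d1, which presents lipids to NKT cells, was higher in BALB/c colon by 0.91 with PBS and 0.46 with VSL#3 (limma adjusted p = 5.3e-05 and 0.0206). Azgp1, a secreted zinc-binding glycoprotein, was higher in C57BL/6 colon by 2.03 and 1.72 (adjusted p = 1.65e-10 and 2.3e-09). The tissue difference of both differed between the strains with PBS, by 0.97 for Cd1d1 and -2.04 for Azgp1 (adjusted p = 0.0137 and 1.28e-06). No probe of Azgp1 was detected on more than 11 of the 40 arrays, so the sizes of its differences include signals near the background. Among the receptors through which lymphocytes recognise class I molecules, 3 of 10 were measured and all 3 were lower in colon in each of the 4 groups, against the same 16.1% to 17.2% of all probes. Cd160, an activating receptor of intraepithelial lymphocytes, differed by -1.70 in PBS C57BL/6 and -1.37 in PBS BALB/c mice (limma adjusted p = 1.94e-07 and 3.87e-06), and Klrd1, the CD94 chain that pairs with receptors for Qa-1, by -1.41 and -0.76 (adjusted p = 5.87e-05 and 0.0149). None of the 3 passed the test of a difference of this tissue contrast between strains. Between the strains within a tissue, Cd8b1 was higher in BALB/c mice in VSL#3 small intestine, by 0.82 (limma adjusted p = 0.00658). In that comparison 11.4% of all probes were called.

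Beyond the 3 genes named above, H2-K1 ILMN_2634603 had an r over 0.8 in its deviations with 13 of 14008 probes, among them Kdelr1 (0.85), Actg1 (0.829) and Spint2 (0.826). ILMN_2795520 had 1 such probe, that of Gm8909, and the other 3 probes had 0.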
